A study of Oreochromis niloticus with 14 samples.

Results

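The expression of 8 genes of the circadian clock loop and of its repressors was followed through the liver and testis of adult male Nile tilapia given benzo(a)pyrene (BaP), a polycyclic aromatic hydrocarbon, or carrier alone. These 8 genes were chosen by name and by their measured values: all are in the study's list of genes altered by BaP in liver, out of 12902 genes measured in liver and 17455 measured in either tissue. They are CLOCK (ENSONIG00000002943), per1a (ENSONIG00000009248), per2 (ENSONIG00000009815), cipca (ENSONIG00000020161), cipcb (ENSONIG00000000875), nr1d1 (ENSONIG00000009283), nr1d4b (ENSONIG00000019164) and bhlhe41 (ENSONIG00000014711). All 8 are present in both the liver and the testis table, and none was removed by a filter on low values. The tables give gene IDs without names, and the names come from the study's own list.

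Poly(A) RNA was sequenced in 14 libraries: 4 of liver and 3 of testis from BaP fish, and 4 of liver and 3 of testis from control fish. Each is called a liver or a testis below, though whether each replicate is a separate fish is not stated. BaP livers 1 to 4 carry title numbers 16, 15, 14 and 11 and control livers 1 to 4 carry 20, 19, 18 and 17; BaP testes 1 to 3 carry 11, 14 and 15 and control testes 1 to 3 carry 18, 19 and 20. All fish were males from a one-year-old stock. BaP fish received 5 intraperitoneal injections of 3 mg/kg BaP at intervals of 6 days, control fish received the DMSO and corn oil carrier on the same schedule, and organs were taken on day 26. BaP and control fish were kept in separate aquaria, so an effect of aquarium and an effect of BaP cannot be told apart. The fish lived under natural daylight, and the hour at which each was sampled is not given in the sources used here, nor is whether the groups were sampled at the same hour.

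In vertebrates the clock is a loop in which CLOCK, paired with a BMAL partner, switches on genes whose products later switch it off. Period proteins, the CLOCK-interacting pacemaker (CIPC), the REV-ERB nuclear receptors encoded by nr1d genes and the DEC repressors encoded by bhlhe40 and bhlhe41 are among those products, so the RNA of each rises and falls with the hour of the day. The liver is one of the organs in which this loop drives daily rhythms of metabolism. CLOCK belongs to the same bHLH-PAS family as the aryl hydrocarbon receptor, the protein that binds BaP.

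The liver libraries held from 12485109 to 42836246 reads on genes and the testis libraries from 26694344 to 30347667. Values are normalized CPM (the reads of a gene scaled to a fixed library total), in which a floor of 3 reads is worth 0.0646 to 0.270 CPM in liver and 0.0972 to 0.111 CPM in testis. Differences are BaP minus control on the scale of log2(CPM + 1), which understates the change of genes near 1 CPM, with the standard error (SE) from limma. The summed level of 8 genes for proteins that hepatocytes secrete was 93752 to 144643 CPM in BaP livers and 58966 to 100404 CPM in control livers, against 112 to 595 CPM in BaP testes and 93.3 to 163 CPM in control testes. No list of testis-defining genes could be named from the tables.

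In liver, 6 of the 8 genes had a lower mean in BaP fish and 2, CLOCK and per2, had a higher mean. All 8 met the unadjusted threshold (p below 0.05 with a fold change above 1.5), 6 of them as lower with BaP. Among all 12902 liver genes 12% met that threshold, 6.07% as lower. Since the genes were selected on this same contrast, nothing is read from that count, and their liver values are given as a description without tests. In bulk tissue, fewer cells of one type and less RNA per cell cannot be told apart.

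CLOCK, the activating transcription factor of the loop in mammals and zebrafish, had 2.28, 1.30, 1.35 and 1.14 CPM in BaP livers 1 to 4, against 0.431, 0.186, 1.20 and 0.495 CPM in control livers 1 to 4. The groups overlapped through control liver 3 alone, which lay above BaP liver 4. These levels rest on 15 to 47 reads in BaP livers and on 6 to 23 reads in control livers. For BaP liver 4 the exact 95% Poisson interval was 0.787 to 1.61 CPM and for control liver 3 it was 0.763 to 1.81 CPM, so counting error alone covers their order; such intervals cover counting error only. The mean was 1.52 ± 0.514 CPM in BaP livers and 0.579 ± 0.437 CPM in control livers (SD, n = 4 each), a ratio of means of 2.62. The log2 difference was 0.69 (SE 0.25), and 1.42 when 0.1 rather than 1 was added before taking logs. The study's list marks CLOCK as one of several copies, so which copy this ID stands for is not known, and reads could be split between copies.

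The period genes, whose products enter the nucleus and inhibit CLOCK, went opposite ways. The per1a gene had 228, 226, 75.2 and 219 CPM in BaP livers 1 to 4, against 165, 634, 372 and 544 CPM in control livers 1 to 4. BaP liver 3 was far below the other BaP livers, and control liver 1 fell within the range of the BaP livers while the other controls lay above all of them. The means were 187 ± 74.5 CPM in BaP livers and 429 ± 207 CPM in control livers (SD, n = 4 each), with a log2 difference of -1.16 (SE 0.48).

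For per2, which in zebrafish is known as a light-inducible period gene, BaP livers had 12.2, 17.7, 31.6 and 28.1 CPM and control livers had 12.5, 5.24, 7.27 and 15.5 CPM. The highest per2 value was in BaP liver 3, the library with the lowest per1a, and the lowest was in control liver 2, the library with the highest per1a. The groups overlapped, since BaP liver 1 lay just under control liver 1 and further under control liver 4. Mean per2 was 22.4 ± 9.00 CPM in BaP livers and 10.1 ± 4.72 CPM in control livers (SD, n = 4 each), with a log2 difference of 1.09 (SE 0.38).

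The 2 cipc genes are fish copies of CIPC, which in mammals binds CLOCK and inhibits it. Transcripts of cipca were at 6.28, 5.83, 6.56 and 3.05 CPM in BaP livers, against 12.1, 9.95, 15.6 and 9.41 CPM in control livers. Every BaP liver lay below every control liver, which held for no other of the 8 genes; among all liver genes the groups did not overlap for 7.73%. The means were 5.43 ± 1.62 CPM in BaP livers and 11.8 ± 2.83 CPM in control livers (SD, n = 4 each), with a log2 difference of -1.01 (SE 0.27). Control liver 3, low for several of the other genes, was the highest of all livers for cipca.

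Transcripts of cipcb were at 111, 60.2, 35.3 and 26.0 CPM in BaP livers, against 73.9, 195, 71.1 and 155 CPM in control livers. BaP liver 1 exceeded control livers 1 and 3, so the groups overlapped, and control livers 2 and 4 stood above all BaP livers. Mean cipcb was 58.2 ± 38.2 CPM in BaP livers and 124 ± 61.2 CPM in control livers (SD, n = 4 each), with a log2 difference of -1.15 (SE 0.48). The ratio of cipcb to cipca within a library ran from 5.38 to 17.7 in BaP livers and from 4.55 to 19.6 in control livers, so it overlapped almost throughout.

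The nuclear receptor nr1d1 encodes REV-ERB alpha, which in mammals represses the gene for CLOCK's partner BMAL1 and, through heme, ties the clock to liver metabolism. Its level was 3.45, 6.86, 0.989 and 1.56 CPM in BaP livers, against 16.3, 23.3, 3.66 and 12.8 CPM in control livers. Control liver 3 lay among the BaP livers, and the other controls lay above every one of them. With means of 3.21 ± 2.65 CPM in BaP livers and 14.0 ± 8.18 CPM in control livers (SD, n = 4 each), the ratio of means was 0.229. The log2 difference of -1.81 (SE 0.55) was the largest in size among the 8 genes.

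The fish gene nr1d4b is named as a further member of the same REV-ERB group, for which no separate role is given here. It had 6.01, 4.50, 2.16 and 8.49 CPM in BaP livers and 18.4, 18.9, 4.81 and 9.02 CPM in control livers. Control liver 3 again fell among the BaP livers, and control liver 4 was only just above the highest BaP liver. Mean nr1d4b was 5.29 ± 2.66 CPM in BaP livers and 12.8 ± 7.00 CPM in control livers (SD, n = 4 each), with a log2 difference of -1.07 (SE 0.46).

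The bHLH repressor bhlhe41, known as DEC2 in mammals, where it competes for the E-box sites that CLOCK binds, had 6.08, 6.02, 2.07 and 1.32 CPM in BaP livers. Control livers had 18.5, 15.2, 5.13 and 13.1 CPM. All controls but control liver 3 lay above every BaP liver. The means were 3.87 ± 2.53 CPM in BaP livers and 13.0 ± 5.68 CPM in control livers (SD, n = 4 each), with a log2 difference of -1.57 (SE 0.46).

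**Figure D1:**
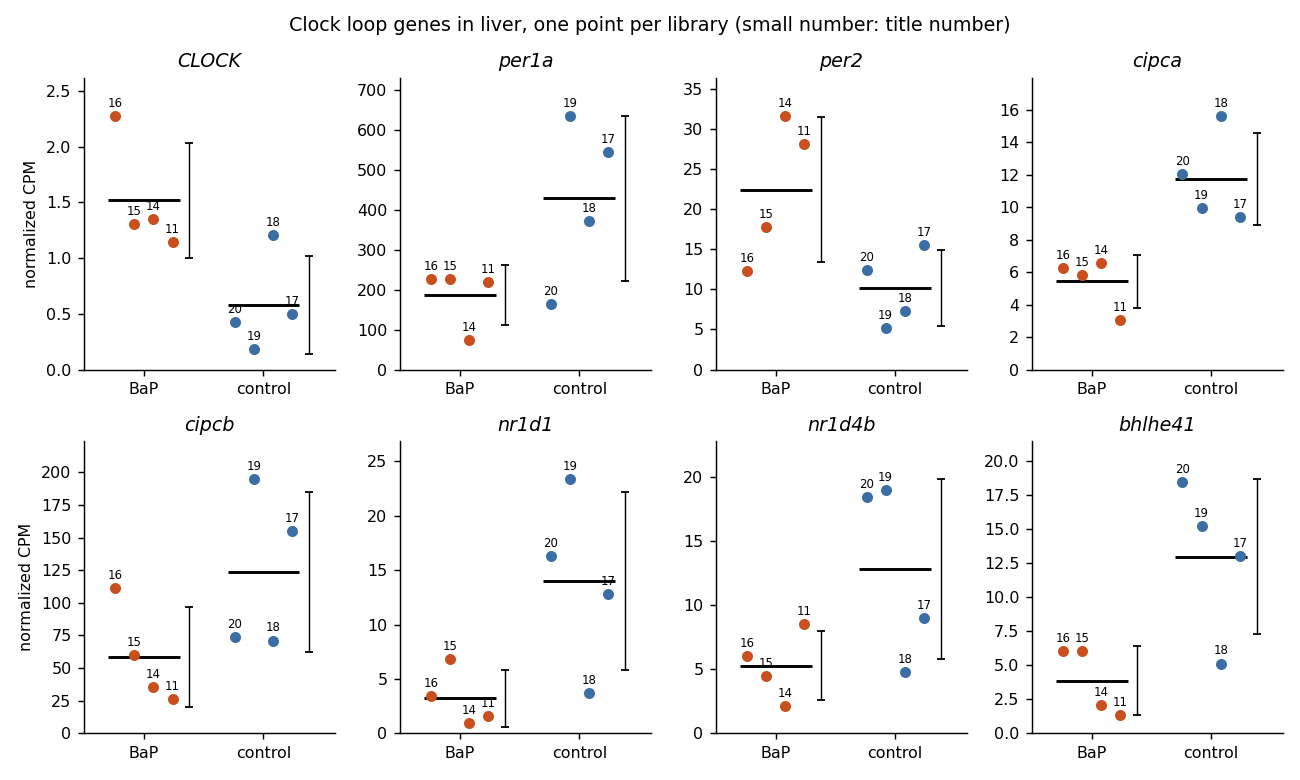
Normalized CPM of the 8 genes in each liver library, with BaP livers left of control livers; points are libraries with their title numbers, horizontal bars are group means and vertical bars are 1 SD either side. Only for cipca do the groups stay apart, and for CLOCK, cipcb, nr1d1, nr1d4b and bhlhe41 control liver 3 sits among the BaP livers.

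Control liver 3 was therefore inside the range of the BaP livers for 5 of the 8 genes, namely CLOCK, cipcb, nr1d1, nr1d4b and bhlhe41, and outside it for per1a, per2 and cipca. The share of all liver genes for which this library lay inside that range was not computed, so nothing is read from the count. Counted without that library, a choice made after seeing the data, the groups did not overlap for 5 genes: CLOCK as higher, and cipca, nr1d1, nr1d4b and bhlhe41 as lower with BaP. Without it the share of all liver genes whose groups did not overlap was 18.6%, against 7.73% with all livers. Leaving out any library can only raise this share. It was not computed without another library, so nothing is read from the rise.

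After adjustment over all liver genes, limma called 0 of the 8 genes at an adjusted p under 0.05, where 8 had an unadjusted p under 0.05; 0.0698% of all liver genes passed the adjusted threshold and 13.5% the unadjusted one. The exact test of edgeR on recovered reads, the kind of test the study used, called 1 of the 8, nr1d1, beside 1.73% of all genes. Its quasi-likelihood test called 0 of the 8, beside 0.0388%. Without control liver 3 limma called nr1d1, beside 1.67% of all genes. These counts come from the contrast that selected the genes and carry no support. With a pseudocount of 1, CLOCK had the smallest log2 difference in size of the 8, at 0.69; with a pseudocount of 0.1 it was cipca, at -1.13, and with the exact test cipcb, at -1.09. Just outside the unadjusted threshold in limma lay klf9, a further clock gene of the same list, with a log2 difference of -1.21 (SE 0.56). Clock genes outside that list carry no name in the tables.

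The 8 genes also varied among libraries of one group. Their median within-group SD on the log2(CPM + 1) scale was 0.73 in BaP livers and 0.74 in control livers, against 0.35 and 0.42 for all liver genes in the same groups. The median log2 difference was -1.11 over the 8 genes and 0.02 over all liver genes. Pairs of the 8 did not all vary alike. Across the 8 livers nr1d1 had a Pearson r of 0.95 with bhlhe41, 0.54 with cipca and -0.79 with CLOCK. The r of cipca with nr1d4b was 0.26. These values are descriptive, since the livers share the group difference that selected the genes.

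The ratio of nr1d1 to CLOCK within a library sets a repressor against the activator independently of the scaling between libraries. It is not per transcript length, so only its change between libraries is described. It was 1.52, 5.26, 0.733 and 1.36 in BaP livers, against 37.8, 125.5, 3.04 and 25.9 in control livers. The 125.5 of control liver 2 rests on 6 reads of CLOCK. Control liver 3 fell among the BaP livers here too. The ratio of per1a to per2 was 18.6, 12.7, 2.38 and 7.79 in BaP livers and 13.2, 121, 51.1 and 35.0 in control livers. Here the overlap came from control liver 1 and BaP liver 1, and control liver 3 stood above all BaP livers. Both ratios set a gene selected as lower with BaP in liver over a gene selected as higher. Their group differences in liver therefore follow from that selection and are given as a description.

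**Figure D2:**
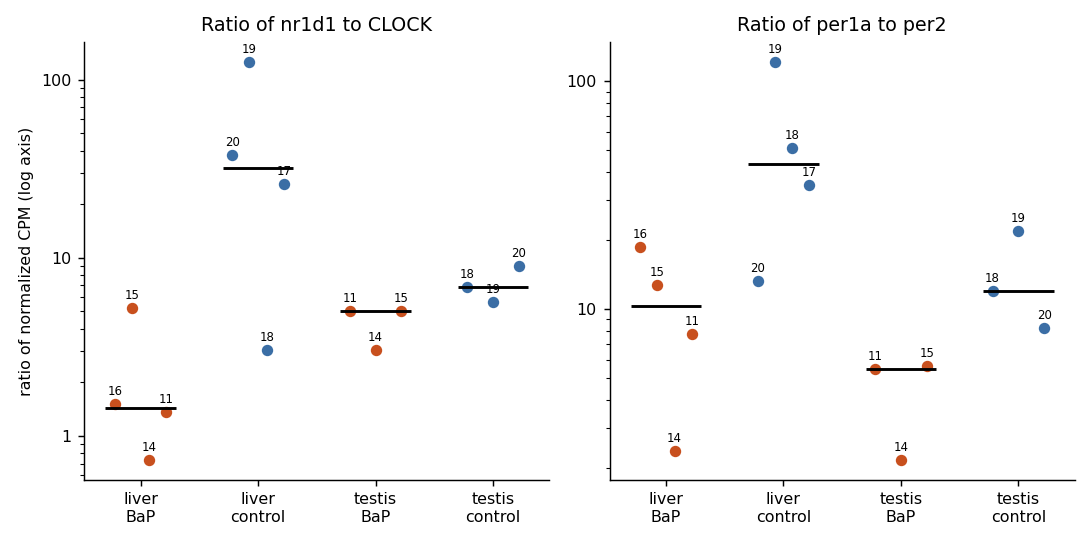
Ratio of nr1d1 to CLOCK and of per1a to per2 within each library (log axis), for liver and testis, with BaP left of control; each point is a library with its title number and horizontal bars are medians. In testis the BaP and control points do not overlap for either ratio, while in liver each ratio overlaps. The share of all gene pairs so separated was not computed, and per1a met the study's list criterion in testis too.

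Testis allowed a look at the same genes in an organ that did not choose most of them. The genes per1a and nr1d4b also met the study's list criterion in testis, so only the other 6 were tested there, with limma across all 16930 testis genes. None of those 6 passed at an adjusted p under 0.05, and the adjusted p by edgeR's exact test was 1.00 for each. At the same unadjusted threshold limma called 0 of the 8 genes, where 2.18% of all testis genes were called, 0.998% as lower with BaP. edgeR's exact test called 2 there, per1a and nr1d4b, beside 3.05% of all testis genes, and its quasi-likelihood test 0, beside 2.35%. Nothing is read from these 2 calls, since these are the genes already selected on the testis contrast. In limma 1 of the 8, per2, had an unadjusted p under 0.05, as 2.52% of all testis genes did. With replicate number as a block in the model, limma called 2 of the 8 as lower, nr1d4b and bhlhe41, beside 589 of the 16930 testis genes. For bhlhe41, not selected on testis, the unadjusted limma p was 0.0394 with the block and 0.279 without it. Its adjusted limma p with the block was 0.999, so it did not pass.

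CLOCK had 10.6, 13.0 and 8.20 CPM in BaP testes 1 to 3, against 9.12, 7.15 and 6.88 CPM in control testes 1 to 3. The groups overlapped through BaP testis 3 and control testis 1. The log2 difference was 0.40 (SE 0.23, limma adjusted p = 1.00, n = 3 each).

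For per2 the BaP testes had 15.5, 16.5 and 20.0 CPM and the control testes 11.1, 11.9 and 12.4 CPM. The lowest BaP testis exceeded the highest control testis, a separation found for no other of the 8 genes in testis; among all testis genes 6.08% had groups that did not overlap. The means were 17.3 ± 2.32 CPM in BaP testes and 11.8 ± 0.677 CPM in control testes (SD, n = 3 each). The log2 difference was 0.51 (SE 0.19), with an unadjusted limma p of 0.0303 and an adjusted p of 1.00, so it did not pass.

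Levels of per1a were 84.7, 36.0 and 113 CPM in BaP testes and 133, 262 and 102 CPM in control testes. BaP testis 3 was above control testis 3, and the other BaP testes lay below all controls. The log2 difference of -1.11 (SE 0.51) is given without a test.

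The cipc genes and nr1d1 differed little relative to the spread between testes. Levels of cipca were 10.6, 11.9 and 13.7 CPM in BaP testes, inside the 6.94, 20.5 and 14.0 CPM of control testes, with a log2 difference of -0.07 (SE 0.37, limma adjusted p = 1.00, n = 3 each). Levels of cipcb were 75.9, 67.8 and 88.8 CPM in BaP testes and 73.4, 117 and 115 CPM in control testes, with a log2 difference of -0.37 (SE 0.25, limma adjusted p = 1.00, n = 3 each). Levels of nr1d1 were 53.2, 39.5 and 41.4 CPM in BaP testes and 62.4, 40.2 and 61.7 CPM in control testes, with a log2 difference of -0.27 (SE 0.25, limma adjusted p = 1.00, n = 3 each). In each of these genes 1 or more control testes lay at or below the level of a BaP testis.

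The remaining repressors were low and variable in testis. Levels of bhlhe41 were 1.58, 1.72 and 6.87 CPM in BaP testes and 1.85, 5.87 and 13.8 CPM in control testes, with a log2 difference of -0.80 (SE 0.68, limma adjusted p = 1.00, n = 3 each). Levels of nr1d4b were 2.24, 2.41 and 7.19 CPM in BaP testes and 2.99, 11.0 and 17.8 CPM in control testes, with a log2 difference of -1.11 (SE 0.63) and no test. In both genes BaP testis 3 was well above the other BaP testes and control testis 1 was near the low BaP testes. Across the 6 testes nr1d4b and bhlhe41 had a Pearson r of 0.97, given as a description.

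**Figure D3:**
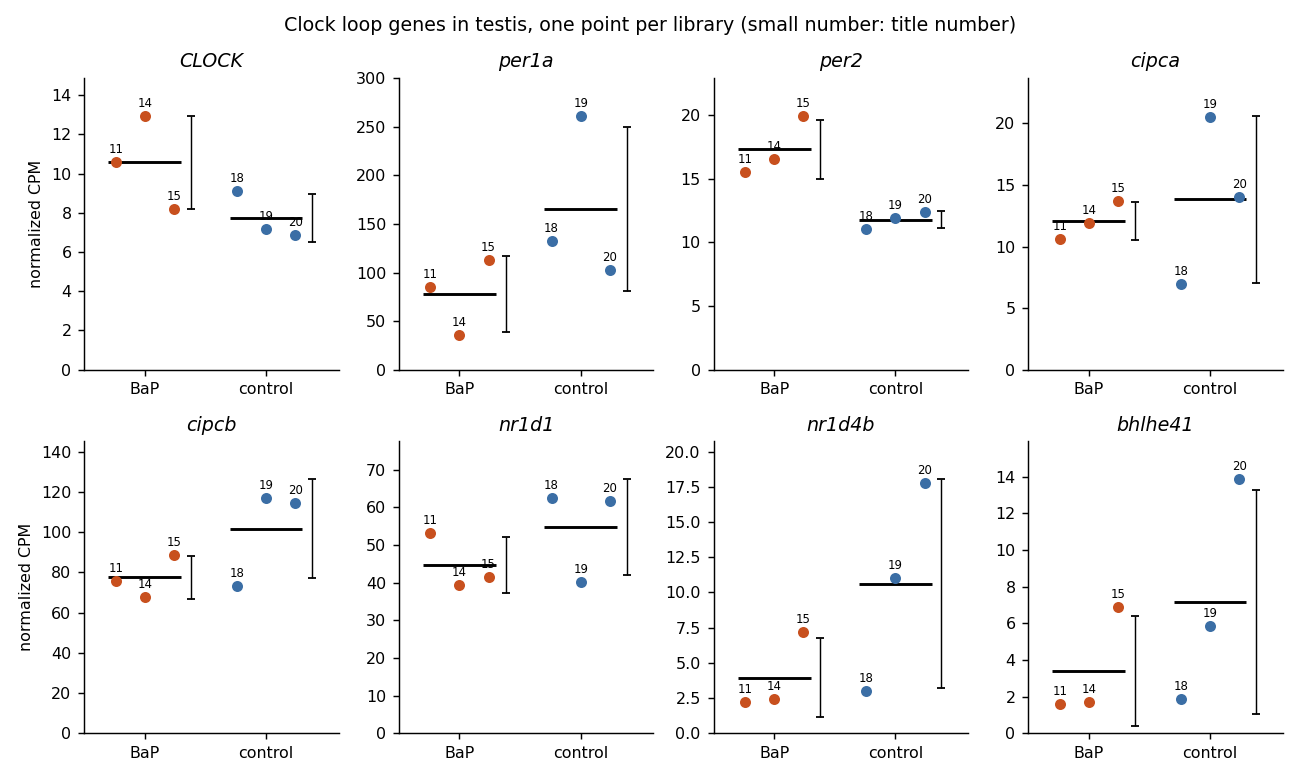
Normalized CPM of the 8 genes in each testis library, with BaP testes left of control testes; points are libraries with their title numbers, horizontal bars are group means and vertical bars are 1 SD either side. Only for per2 do the groups stay apart, and for nr1d4b and bhlhe41 control testis 1 lies near the lower BaP testes.

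For the 8 genes, counts of adjusted calls in testis were no larger with other tests. limma called 0 of the 8 genes at an adjusted p under 0.05, beside 0.00591% of all testis genes. edgeR's exact test also called 0, beside 0.289%, and its quasi-likelihood test 0, beside 0% of all genes. The median log2 difference over the 8 genes in testis was -0.32 and over all testis genes -0.02. The median of the 8 includes per1a and nr1d4b, which were also selected on the testis contrast, so nothing is read from its distance from that of all genes. The median within-group SD on the log2 scale was 0.26 in BaP testes and 0.54 in control testes for the 8 genes, against 0.26 and 0.35 for all testis genes.

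Within a testis library, the ratio of nr1d1 to CLOCK was 5.03, 3.05 and 5.05 in BaP testes, against 6.84, 5.62 and 8.97 in control testes. The ratio of per1a to per2 was 5.46, 2.18 and 5.64 in BaP testes, against 12.0, 22.0 and 8.24 in control testes. For these 2 ratios every BaP testis lay below every control testis. Each sets a gene lower with BaP in liver over one higher with BaP in liver, and per2 alone also stood apart in testis. The share of all gene pairs with such a separation was not computed. The third ratio computed, cipcb to cipca, overlapped, at 5.69 to 7.16 in BaP testes and 5.69 to 10.6 in control testes. None of these ratios was tested: per1a met the list criterion in testis, and with 3 libraries against 3 the smallest two-sided exact permutation p is 0.1.

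**Figure D4:**
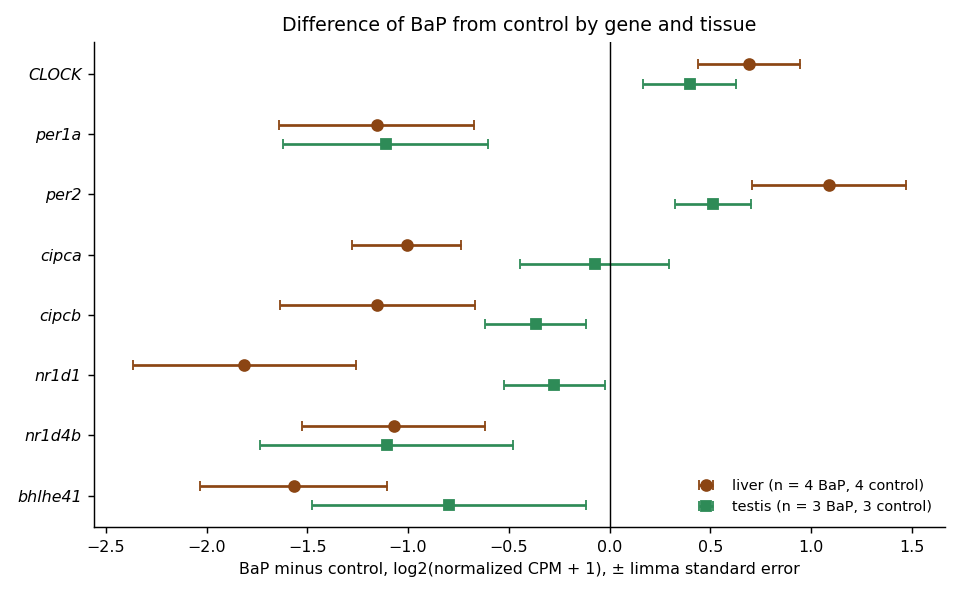
Difference of BaP minus control on the log2(CPM + 1) scale for the 8 genes in liver and testis; points are limma estimates and bars are 1 SE. The liver estimates run from -1.81 for nr1d1 to 1.09 for per2, and the testis estimates from -1.11 for per1a and nr1d4b to 0.51 for per2.

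Side by side, nr1d1 had log2 differences of -1.81 in liver and -0.27 in testis, and bhlhe41 had -1.57 in liver and -0.80 in testis. For cipca the values were -1.01 in liver and -0.07 in testis. Those of per1a were -1.16 in liver and -1.11 in testis, but -0.77 in liver without BaP liver 3, and in testis -0.64 without BaP testis 2 and -0.72 without control testis 2. Those of nr1d4b were -1.07 in liver and -1.11 in testis. No test was run between the tissues. Of the title numbers, 6 occur in both tissues, and the labels do not say whether a number stands for a single fish, so the tissues may not be independent.

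Title number 18 is control liver 3 and control testis 1. In each tissue it was the lowest control for 4 of the 6 genes that were lower with BaP in liver. In liver these were cipcb, nr1d1, nr1d4b and bhlhe41, while it was the highest control for cipca. In testis they were cipca, cipcb, nr1d4b and bhlhe41, while it was the highest control for nr1d1. The share of all genes with such a rank was not computed. Single libraries moved the testis differences both ways. The log2 difference of nr1d4b was -1.74 without control testis 1 and -0.63 without control testis 3. That of bhlhe41 was -1.41 without control testis 1, -1.32 without BaP testis 3, -0.52 without BaP testis 1 and -0.22 without control testis 3. The library with title number 15 was the highest of the BaP testes for 5 of those 6 genes, and the highest of the BaP livers for 1 of the 6.

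The levels of CLOCK and nr1d1 in the tissue tables did not overlap between liver and testis in control fish. Mean CLOCK was 7.72 CPM in control testes and 0.579 CPM in control livers, a ratio of 13.3. Mean nr1d1 was 54.8 CPM in control testes and 14.0 CPM in control livers, a ratio of 3.91. The remaining 6 genes overlapped between the tables. The tables were normalized separately, so these are levels side by side without a test.

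A further 10 clock genes were taken from the same list of altered genes, and so were chosen on the liver contrast too. They comprise the repressor bhlhe40, the PAR bZIP factors dbpa, dbpb and tefb, which in mammals drive output genes of the clock, their antagonists nfil3-2 and nfil3-5, nocta, named after the rhythmic protein nocturnin, the deubiquitinase gene usp2a, fbxl3l, named after a ligase subunit that degrades cryptochromes in mammals, and klf9. In liver all 10 had a lower mean in BaP fish, 9 met the unadjusted threshold as lower and 0 as higher, with a median log2 difference of -1.28. Of all liver genes 6.07% met it as lower. As with the 8 genes, nothing is read from that count.

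The groups stood furthest apart for bhlhe40, the partner of bhlhe41 known as DEC1 in mammals, at 5.84 to 11.3 CPM in BaP livers and 67.8 to 370 CPM in control livers. The groups did not overlap for 4 more of these genes, where the share over all liver genes was 7.73%. Nothing is read from this count either, since the genes were chosen on the same contrast. Levels of tefb were 7.10 to 22.4 CPM in BaP livers and 42.5 to 86.3 CPM in control livers. Levels of nocta were 15.2 to 34.7 CPM in BaP livers and 51.6 to 70.7 CPM in control livers.

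Levels of usp2a were 6.02 to 10.5 CPM in BaP livers and 13.8 to 27.0 CPM in control livers. Those of dbpb were 9.98 to 14.8 CPM in BaP livers and 19.7 to 31.0 CPM in control livers. The other genes overlapped between the groups. Levels of dbpa were 5.12 to 11.2 CPM in BaP livers and 9.63 to 25.0 CPM in control livers. Those of nfil3-2 were 1.66 to 4.75 CPM in BaP livers and 3.90 to 12.7 CPM in control livers, and those of nfil3-5 were 3.87 to 6.69 CPM in BaP livers and 4.52 to 15.7 CPM in control livers. Levels of fbxl3l were 2.21 to 5.02 CPM in BaP livers and 4.09 to 21.5 CPM in control livers. The gene that missed the threshold was klf9, at 12.6 to 88.3 CPM in BaP livers and 60.0 to 194 CPM in control livers.

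In testis, where fbxl3l is not in the table, 7 of the 9 remaining genes had a lower mean in BaP fish and 2 a higher one. limma called 0 of the 9 at the unadjusted threshold, at an unadjusted p under 0.05 or at an adjusted p under 0.05. Its shares over all testis genes were 2.18%, 2.52% and 0.00591%. edgeR's exact and quasi-likelihood tests called 0 of the 9 as well, beside 3.05% and 2.35% of all testis genes at the unadjusted threshold. With the replicate block limma called 1 of the 9 as lower, beside 589 of the 16930 testis genes. With shares this small, nothing is read from these counts. The control with title number 18 was the lowest of its group for 7 of these 9 genes in testis and the highest for 1, usp2a. In liver it was the lowest for 5 of the 10 and the highest for 3, fbxl3l, nfil3-5 and klf9, and control liver 4 was the lowest for the other 5. For these genes too, the share of all genes with such ranks was not computed.

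**Figure D5:**
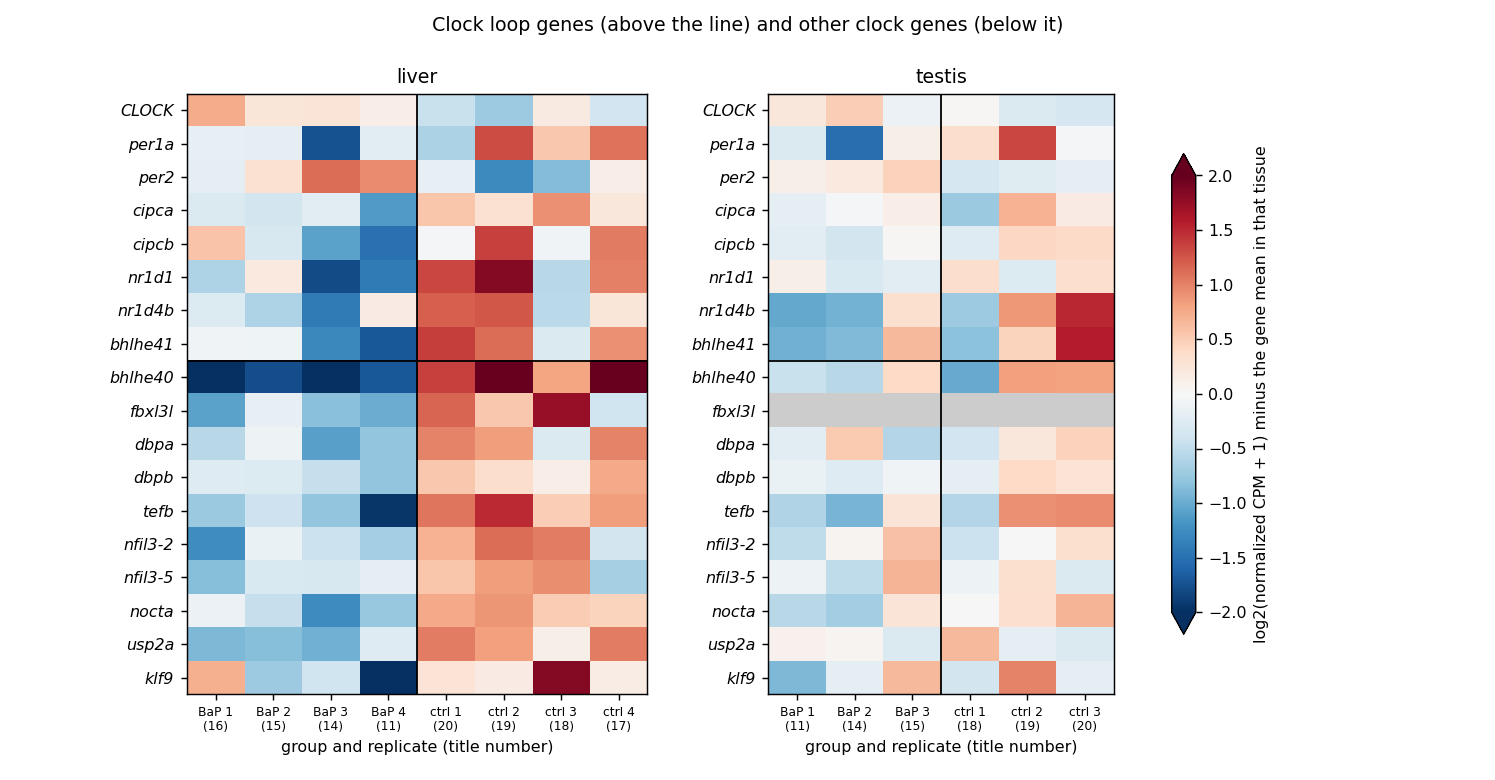
Deviation of each library from the gene's mean in that tissue, on the log2(CPM + 1) scale, for the 8 genes (above the line) and the 10 other clock genes (below it), with BaP libraries left of control libraries and title numbers in parentheses; grey marks a gene not in the testis table. Control liver 3, title number 18, is blue or pale for nr1d1, nr1d4b and bhlhe41, where the other controls are red, and is the reddest library for cipca, fbxl3l and klf9.

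Genes of other cell types and states were also compared between the same groups. They could be named only through the study's list of altered genes, so nothing is read from how many met the unadjusted threshold. In liver the 8 genes for hepatocyte-secreted proteins (apoa1a, apoa2, APOH, fga, fgg, itih1, C2 and cpn1) all had a higher mean in BaP fish, and 6 met the unadjusted threshold, which 12% of all liver genes met. The 5 digestive enzyme genes measured of the exocrine pancreas, which in many fish lies within the liver, summed to 21866 to 24674 CPM in BaP livers and 8642 to 25572 CPM in control livers. Of these genes limma called 1 as higher at the unadjusted threshold, and edgeR's exact and quasi-likelihood tests called 0. The 7 genes of mitosis summed to 11.3 to 16.0 CPM in BaP livers and 13.4 to 86.9 CPM in control livers. All 7 had a lower mean in BaP fish and 5 met the threshold as lower, which 6.07% of all liver genes did. The study's list also holds spindle and centrosome genes that were higher with BaP in liver, among them MZT2B, CEP152, CEP57 and CEP135. The shared direction of the 7 therefore does not stand for all genes of mitosis. Without control liver 2 limma called 0 of the 7, and without BaP liver 4 or control liver 4 it called 1. Without control liver 3 limma called all 7 as lower, and so did edgeR's exact and quasi-likelihood tests on all libraries. Control liver 3 lay inside the range of the BaP livers for each of these sums, a position for which no share over all genes was computed. It had 100404 CPM for the hepatocyte genes, 24506 CPM for the pancreas genes and 13.4 CPM for the mitosis genes. In testis the pancreas genes summed to 4.48 to 167 CPM in BaP fish and 2.56 to 6.39 CPM in control fish. The part of these shifts in the differences of the clock genes was not tested.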

How the data were processed

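Per the labels and the study's methods, poly(A) libraries were aligned with TopHat and tested with edgeR. Neither the read counter nor the genome build and annotation are given in the sources used here, so paralogs such as cipca and cipcb, or nr1d1 and nr1d4b, may share reads. The deposited values are a normalized signal: the authors scaled the reads of each gene as CPM on TMM library sizes, with factors of 0.858 to 1.19. In every library 100% of values were whole multiples of 1 step (tolerance 0.1), which recovered the read counts.

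The 8 genes and all lists were chosen with earlier results of these data known. Each tissue was fitted with limma 3.58.1 on log2(CPM + 1) over all deposited genes, with Benjamini-Hochberg adjustment. edgeR 4.0.16 (exact and quasi-likelihood tests on recovered reads), a pseudocount of 0.1, a filter (CPM of at least 1 in 3 or more libraries), library-size scaling, a replicate block and leaving out each library were the alternatives; the non-overlap count without control liver 3 was added after seeing the data. The scripts were tested on simulated data. All 8 genes are described, together with the other clock genes and, for nr1d1 and CLOCK, the 3 named genes most like each across livers. The labels do not say that replicate numbers pair the samples, and the main fits use no pairing. Whether each replicate is a separate fish is not stated, so p-values measure only the spread between these samples, which may be technical. A promoter motif search was not run because no sequence table was used here.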

Additional observations from a re-analysis of the deposited data

Results flagged for a closer look

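One value stood apart within its group. The level of per1a in BaP liver 3 was 75.2 CPM, against 219 to 228 CPM in the other BaP livers, a gap that took up 0.942 of the range of the 4 BaP livers. In all 16 groups (8 genes in BaP and in control livers) were looked at in this way, and chance marks about 1 in 20 groups. The same library had the highest per2 level of all livers.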

How the results depend on the processing

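The direction of all 8 genes in liver held under every alternative listed above. CLOCK's log2 difference in liver was 0.69, and 1.41 with the exact test, 1.40 with the quasi-likelihood test and 1.42 with a pseudocount of 0.1. In testis the sign of cipca turned to 0.01 without BaP replicate 1 and to 0.25 without control replicate 2; leaving out single libraries gave -0.47 to 0.25. Of the 8 genes in liver, 8 met the unadjusted threshold, but 5 with a pseudocount of 0.1, 4 without BaP replicate 3 and 3 without control replicate 2. Liver genes with an adjusted p under 0.05 numbered 9, and 223 with the exact test, 5 with the quasi-likelihood test, 0 with a pseudocount of 0.1 and 0 to 216 when single libraries were left out (216 without control replicate 3, 16 without BaP replicate 1). Liver genes past the unadjusted threshold numbered 1548, and 1116 to 2370 when single libraries were left out (2370 without control replicate 3). Testis genes with an adjusted p under 0.05 numbered 1, and 49 with the exact test, but 0 with the quasi-likelihood test, with a pseudocount of 0.1, with library-size scaling and without any single library (0 to 0). Testis genes past the unadjusted threshold numbered 369, and 282 to 829 when single libraries were left out (829 without BaP replicate 3, 784 without control replicate 1, 567 without control replicate 3). The replicate block gave 2 adjusted calls in liver, 0 in testis and 589 testis genes past the unadjusted threshold. Libraries of the same number in BaP and control had correlations of -0.02 to 0.20 in liver and -0.08 to 0.37 in testis. In liver 1 of 4 numbers correlated best with itself, and in testis 1 of 3. With so few numbers, whether they pair the samples cannot be told. Scaling by library size alone moved the liver median of all genes to -0.16, against 0.02 as deposited, and the share of unadjusted calls that were lower to 79.3%, against 50.6%; in testis that share was 35.0%, against 45.8%. The cause was not tested. Depth limits CLOCK in liver most, at 6 to 47 reads a library.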

Other observations

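Among the 1435 other named liver genes, those whose log2(CPM + 1) followed nr1d1 most closely across the 8 livers were kcnk1b, a potassium channel gene (Pearson r of 0.97), zfand4 (0.96) and eef2k, which encodes the kinase of translation elongation factor 2 (0.96). They ranked 8, 9 and 10 among all 12901 other genes. Those most like CLOCK were wdr55 (0.99), umps, which encodes an enzyme of pyrimidine synthesis (0.98), and STARD10 (0.96), at ranks 1, 2 and 5. Named genes were all picked for a difference between the same groups, so these values are descriptions over 8 livers that share that difference.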
